A study of Mus musculus with 6 samples.

Results

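The genes described here are 10 genes of the YAP/TAZ pathway, taken by symbol from the 55364 genes that the count tables list. They are the coactivator genes Yap1 and Wwtr1 (the gene of TAZ), the transcription factor gene Tead1, the kinase gene Lats2, the adaptor genes Amotl1, Amotl2 and Ajuba, and the target genes Ankrd1, Axl and Crim1. The rule that takes them uses no measured value, but it was set with earlier results of these data known. All 10 were listed, had counts in every library and passed the filter on low counts, which kept 10346 genes.

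YAP and TAZ are coactivators that carry no DNA-binding domain of their own and act on transcription through the TEAD factors. The Hippo kinases of the LATS family phosphorylate YAP and TAZ and hold them in the cytoplasm. Cell spreading, actin tension and a stiff matrix favour the entry of YAP and TAZ into the nucleus. In lung fibroblasts they are known for driving matrix and contractile genes alongside TGFβ, and several of their own inhibitors, such as LATS2 and angiomotin-like proteins, are also their targets.

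Primary lung fibroblasts (LFs) from young adult C57Bl6/J mice were grown for few passages, starved of serum and then given 10 ng/ml TGFβ, again without serum, for 24 h, wt and mutant cells alike, and 3 libraries of each genotype were made by Quant-Seq (LEXOGEN), which reads the end of each transcript. The sample labels call the mutant cells a TKS5 knockout, while the study names them Tks5+/-, heterozygous in every cell for an allele of Sh3pxd2a, the gene of the podosome scaffold Tks5, that lacks an inner exon after recombination by a Cre under the CMV promoter. All 6 libraries were TGFβ-exposed, so no effect of TGFβ itself can be read. The comparison shows how the pathway's transcripts differed between the genotypes under TGFβ. The study describes its samples as biologically independent. The labels do not say whether the 3 libraries of a genotype came from separate mice or from cultures of the same cells, and the p-values measure the spread between these libraries.

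Whole library totals were 1344507 to 2369882 counts in wt LFs and 1979084 to 2329155 in the libraries labelled TKS5 KO. The reads on Sh3pxd2a numbered 205, 190 and 284 in the wt libraries and 238, 258 and 260 in those labelled TKS5 KO, for a log2 fold change of 0.29 (SE 0.20, adjusted p = 0.249 by edgeR's quasi-likelihood test). The reads come from the end of the transcript and not from the deleted exon, so these counts do not check the deletion, and each direction below rests on the labels. The study reports lower Tks5 mRNA in Tks5+/- LFs by Q-RT-PCR, a reduction that the counts here did not show. Fibroblast markers were present in every library, with a summed level of 3876 to 5254 CPM (counts scaled to a common library size) in wt LFs and 5598 to 8715 in the libraries labelled TKS5 KO. The 9 markers did not move together. Thy1 (log2 fold change 1.93), Vim (1.27), Pdgfra (0.69) and Col3a1 (0.64) were higher and Pdgfrb (-0.997) was lower. The other 4 did not pass the thresholds given below. The 10 macrophage markers summed to 370.1, 313.6 and 1926 CPM in wt replicates 1, 2 and 3 and to 120.7 to 135.1 in the libraries labelled TKS5 KO, where Ptprc and Adgre1 had no count. Lyz2 made up much of these sums, at 191.8, 180.3 and 1298 CPM in wt replicates 1, 2 and 3 against 76.28, 91.87 and 105.9. All 8 tested macrophage markers were lower without overlap. Of these, 5 passed the thresholds given below, and Lyz2, Tyrobp and Fcer1g did not. The 7 endothelial markers summed to 87.22 to 113.1 against 19.31 to 26.61 CPM, with Pecam1 and Tek at 0 counts in the libraries labelled TKS5 KO. The 5 mesothelial markers summed to 20.87 to 25.1 against 3.582 to 12.07 CPM. Upk3b, the only mesothelial marker tested, was lower (log2 fold change -3.28). Lrrn4 was also lower without overlap, at a mean of 3.75 against 0.77 CPM. Msln, Wt1 and Krt19 overlapped between the genotypes, and the mean of Krt19 was higher in the libraries labelled TKS5 KO (1.45 against 2.01 CPM). The 6 smooth muscle and pericyte markers summed to 321.8 to 345.7 against 444.5 to 572.6 CPM, where Cnn1 was higher (log2 fold change 1.00) and Myh11, Des, Cspg4 and Notch3, the other tested markers, were lower (median of the 5 tested -1.45). The 8 epithelial markers summed to 24.08 to 47.83 against 29.68 to 60.27 CPM, where Ager was higher (1.82), Krt18 was lower (-5.03), Epcam, Cdh1 and Krt8 were at 0 in the libraries labelled TKS5 KO, and Sftpc, Sftpb and Scgb1a1 were at 0 in all libraries. The part of these cells in the results was not tested. Leaving out libraries cannot separate it from genotype. Every wt library held more macrophage, endothelial and mesothelial marker CPM than every library labelled TKS5 KO. In bulk RNA, fewer cells of a type and less RNA per cell cannot be told apart.

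TEAD factors recognise a short core, GGAATG, or CATTCC where it stands on the opposite strand. RefSeq promoter windows (GRCm38.p6), from 250 bases before a transcription start into the first bases of the transcript, were found for 9 of the 10 genes and not for Tead1. At least 1 of the windows held the core, on either strand, in 8 of these 9 genes, all but Amotl1. The share was 14.2% of the 7592 tested genes with a window and 14.7% of all 32851 windows. Each stretch is shown because it is the match of a gene described here, is written 5′ to 3′ along the gene's strand, and has the core in capitals.
Yap1 (chr9:8004720-8004749, reverse strand): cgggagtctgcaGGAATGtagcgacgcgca
Wwtr1 (chr3:57576029-57576058, reverse strand): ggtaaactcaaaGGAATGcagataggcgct
Lats2 (chr14:57746102-57746131, reverse strand): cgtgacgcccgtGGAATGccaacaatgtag
Amotl2 (chr9:102717727-102717756, forward strand): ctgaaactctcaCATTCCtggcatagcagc
Ajuba (chr14:54577830-54577859, reverse strand): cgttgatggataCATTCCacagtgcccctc
Ajuba (chr14:54577808-54577837, reverse strand): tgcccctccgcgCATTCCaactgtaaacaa
Ankrd1 (chr19:36120037-36120066, reverse strand): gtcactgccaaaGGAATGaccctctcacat
Ankrd1 (chr19:36119950-36119979, reverse strand): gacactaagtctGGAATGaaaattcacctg
Axl (chr7:25788949-25788978, reverse strand): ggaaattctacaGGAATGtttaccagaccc
Crim1 (chr17:78200157-78200186, forward strand): agggcgggggggGGAATGaggtaggatggg
The matches lay 141 bases before the start of Yap1, 136 before that of Wwtr1, 65 before that of Amotl2, 186 and 164 before that of Ajuba, 210 and 123 before that of Ankrd1, 233 before that of Axl and 79 before that of Crim1. That of Lats2 began at base 5 of its transcript, inside an annotated exon, and those of Ankrd1 and Amotl2 also lay in annotated exons of these genes, which have starts further upstream. The second Wwtr1 start has the same match and the second Lats2 start has none. The bases after the RefSeq starts of Ajuba and Axl were not found in any annotated transcript of these genes. The distances given for Ajuba and Axl are thus counted from the RefSeq starts alone. The longer form GGAATGT, which contains the core, was found in Yap1, Amotl2, Ajuba and Axl, against 3.33% of tested genes with a window and 3.85% of all windows. The AP-1 letters TGACTCA were found in 0 of the 11 windows, against 3.66% of the windows of tested genes and 5.2% of all windows. A match of letters is not a site of binding. In the list of other Hippo and TEAD genes given further on, 8 of 20 genes with a window held the core, and in that of other YAP/TAZ targets 1 of 9, which was Ccn1.

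**Figure D1:**
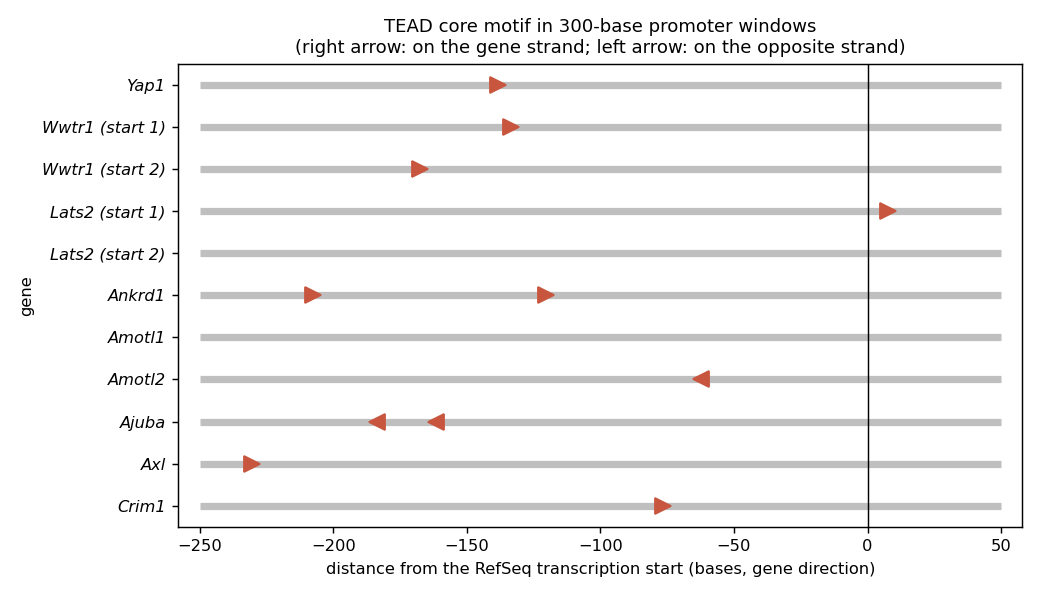
Position of the TEAD core GGAATG in the RefSeq promoter windows of the 9 genes with an entry. The x axis is the distance from the transcription start in bases, each grey bar is 1 of 11 windows and each arrow is a match on the gene's strand (right) or the opposite strand (left). 9 of the 11 windows hold at least 1 match, and those of Ankrd1 and Ajuba hold a pair.

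The 250 bases before the start are given for the 2 genes that fell furthest and for the only gene that rose, with the core in capitals. That of Axl (chr7:25788734-25788983, reverse strand) overlaps no annotated exon, that of Crim1 (chr17:78199998-78200247, forward strand) overlaps an exon of AC154366.4, and that of Yap1 (chr9:8004597-8004846, reverse strand) overlaps an exon of Gm45494.
Axl: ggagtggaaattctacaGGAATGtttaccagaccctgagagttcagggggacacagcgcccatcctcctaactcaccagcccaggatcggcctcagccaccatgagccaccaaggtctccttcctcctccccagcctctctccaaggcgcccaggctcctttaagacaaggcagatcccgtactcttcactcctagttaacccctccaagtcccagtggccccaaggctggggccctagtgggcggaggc
Crim1: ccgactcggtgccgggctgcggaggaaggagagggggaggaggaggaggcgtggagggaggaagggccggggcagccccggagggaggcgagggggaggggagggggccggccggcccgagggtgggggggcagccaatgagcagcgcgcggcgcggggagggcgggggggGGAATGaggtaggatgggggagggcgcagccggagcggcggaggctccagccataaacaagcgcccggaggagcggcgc
Yap1: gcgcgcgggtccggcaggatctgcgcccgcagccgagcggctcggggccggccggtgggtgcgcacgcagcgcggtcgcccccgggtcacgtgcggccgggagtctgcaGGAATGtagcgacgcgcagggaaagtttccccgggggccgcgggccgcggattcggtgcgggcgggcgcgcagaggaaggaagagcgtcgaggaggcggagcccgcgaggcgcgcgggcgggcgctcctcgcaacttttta

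In the libraries labelled TKS5 KO, set against wt LFs, 5 of the 10 genes fell, 1 rose and 4 were not called. Crim1, Axl, Ajuba, Lats2 and Tead1 were lower, Yap1 was higher, and Wwtr1, Ankrd1, Amotl1 and Amotl2 were not called. A gene was called where edgeR's quasi-likelihood test gave an adjusted p (Benjamini-Hochberg over all 10346 genes tested) under 0.05 with a fold change of at least 1.2. Over all tested genes 44.9% were called, 22.1% lower and 22.8% higher, so that 6 calls in 10 genes lie near this background and the count of calls is no result about the set. The 5 lower genes stand beside a background of 22.1%, and the median log2 fold change was -0.55 over the 10 genes and -0.046 over all genes tested. With the trend of each library with transcript length removed, 2 of the 10 genes were called lower, next to 19.0% of all genes. The median of the 10 genes was then -0.27. The CPM of the genotypes did not overlap for 6 of the 10 genes, against 53.8% of all genes. All libraries labelled TKS5 KO lay below all wt libraries for 5 genes (27.6% of all genes) and above them for 1 (26.1%).

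**Figure D2:**
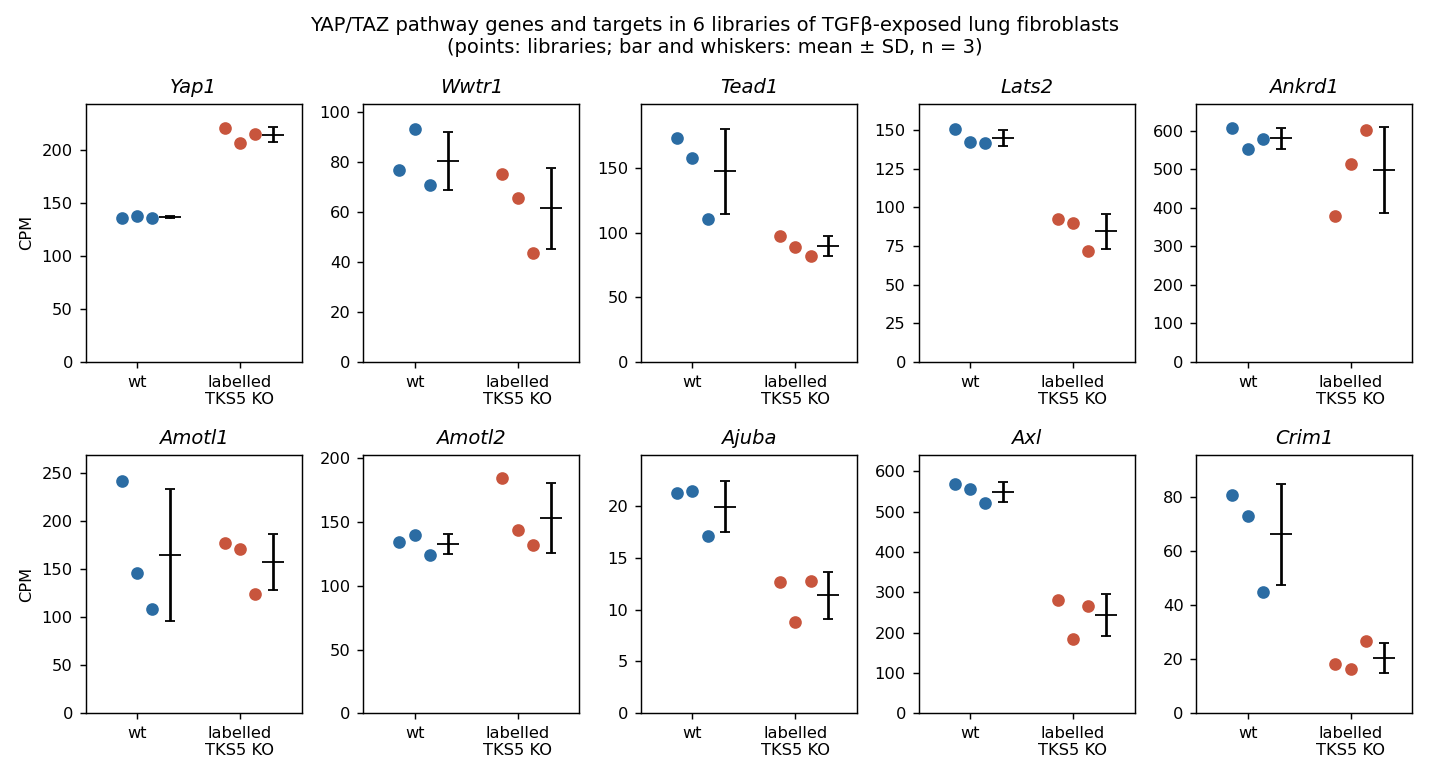
CPM of each of the 10 genes (y axis, linear, from 0) in the 3 wt libraries (blue) and the 3 libraries labelled TKS5 KO (red), each point a library, with the mean and SD in black. Axl, Crim1, Lats2, Tead1 and Ajuba are lower in every library labelled TKS5 KO and Yap1 is higher, from 136 to 214 CPM on average, while the points of Wwtr1, Ankrd1, Amotl1 and Amotl2 overlap.

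Of the coactivator genes, Yap1 rose and Wwtr1 was not called. Yap1 (ENSMUSG00000053110, chr9:7931999-8004596, reverse strand), which encodes YAP, was measured at 135.8, 137.5 and 135.7 CPM in wt replicates 1, 2 and 3 and at 220.6, 206.6 and 214.9 CPM in replicates 1, 2 and 3 labelled TKS5 KO. All 3 mutant values were higher than all wt values and the replicates of a genotype were close to each other. The mean went from 136 ± 1.02 (SD, n = 3) to 214 ± 7.06 CPM (SD, n = 3), a log2 fold change of 0.65 (SE 0.19, 95% interval 0.25 to 1.05, adjusted p = 0.00892 by edgeR). The rise was 0.64 to 0.71 with each library left out, but with scaling by library totals alone it was 0.23 (adjusted p = 0.333) and with the authors' normalized counts 0.34 (adjusted p = 0.156), so that the call of Yap1 rests on the scaling.

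Wwtr1 (ENSMUSG00000027803, chr3:57455649-57575910, reverse strand), which encodes TAZ, was measured at 76.59, 93.11 and 70.82 CPM in wt LFs and at 75.18, 65.54 and 43.5 CPM in the libraries labelled TKS5 KO. The groups overlapped, and the lowest value was that of mutant replicate 3. The log2 fold change was -0.38 (SE 0.23, 95% interval -0.86 to 0.093, adjusted p = 0.181 by edgeR), and with scaling by library totals alone it was -0.80 (adjusted p = 0.00881).

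The ratio of Yap1 to Wwtr1 counts within a library does not depend on the scaling between libraries. It was 1.773, 1.477 and 1.916 in the wt libraries against 2.934, 3.152 and 4.941 in those labelled TKS5 KO. All mutant libraries lay above all wt libraries, by 1.06 on the log2 scale, and by 0.83 to 1.21 (0.83 without mutant replicate 3) with each library left out. The exact two-sided permutation test gave p = 0.1, the smallest that 3 libraries against 3 allow, and 0.25 after adjustment over the 5 ratios computed, which were chosen after values were seen. This ratio compares counts and not molecules per length.

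**Figure D3:**
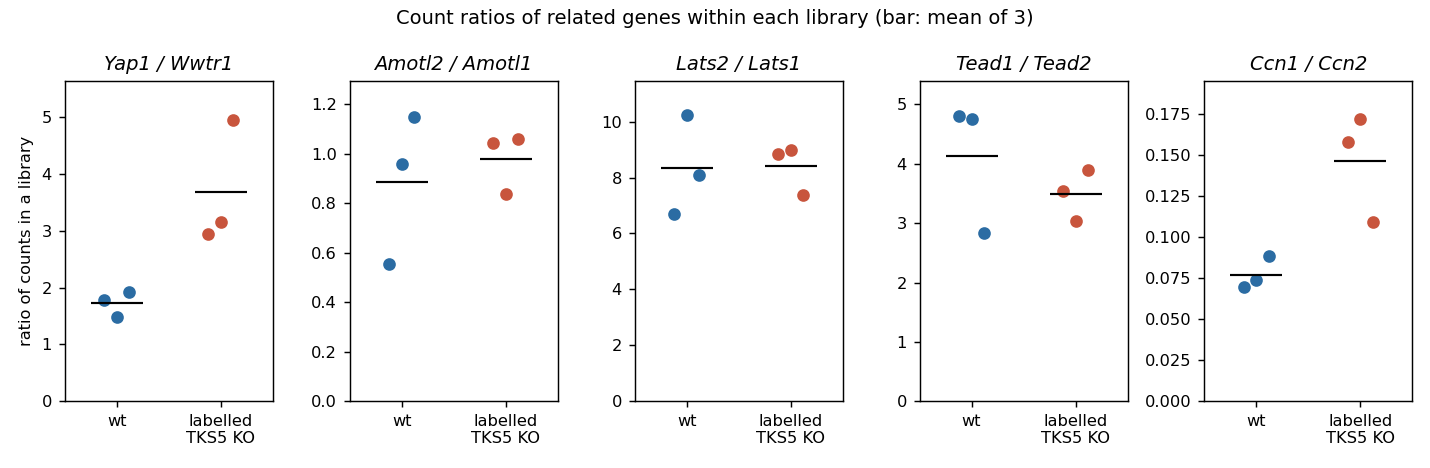
Ratio of the counts of related genes within each library (y axis, linear, from 0), with a point per library and a bar at the mean of the 3 libraries. The Yap1 to Wwtr1 ratio is 1.477 to 1.916 in wt LFs and 2.934 to 4.941 in the libraries labelled TKS5 KO, the Ccn1 to Ccn2 ratio also separates the genotypes, and the Lats2 to Lats1, Tead1 to Tead2 and Amotl2 to Amotl1 ratios overlap.

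Tead1 (ENSMUSG00000055320, chr7:112679318-112906807, forward strand) encodes a DNA-binding partner of YAP and TAZ. It was measured at 173.1, 157.9 and 110.5 CPM in wt LFs and at 97.13, 88.94 and 81.88 CPM in the libraries labelled TKS5 KO. Every mutant value was below every wt value, with wt replicate 3 nearest to the mutant range. The log2 fold change was -0.72 (SE 0.22, 95% interval -1.16 to -0.27, adjusted p = 0.00953 by edgeR). Without wt replicate 1 it was -0.58 (adjusted p = 0.0537) and without mutant replicate 3 it was -0.62 (adjusted p = 0.0549). With the trend of each library with transcript length removed, it was -0.029 (adjusted p = 0.926), so that the fall of Tead1 was not seen under that setting.

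Lats2 (ENSMUSG00000021959, chr14:57689662-57758388, reverse strand) encodes the kinase that phosphorylates YAP and TAZ directly. Its level was 150.6, 142.3 and 141.3 CPM in wt LFs and 92.19, 89.53 and 71.64 CPM in the libraries labelled TKS5 KO. The groups were well apart, from 145 ± 5.11 (SD, n = 3) to 84.5 ± 11.2 CPM (SD, n = 3). The log2 fold change was -0.78 (SE 0.20, adjusted p = 0.00346 by edgeR), it was -0.80 to -0.63 and called with each library left out, and it was -0.44 (adjusted p = 0.0864) after the length correction. The end of Lats2 shares exon sequence with Gm49361 on the same strand, so that the counting could have split reads between them. Lats1, added after its values were seen, was also called lower, with a log2 fold change of -0.83 (SE 0.33, adjusted p = 0.0427 by edgeR). Its call was kept in only 4 of 14 alternatives. The Lats2 to Lats1 ratio was 6.686 to 10.23 in wt LFs and 7.368 to 9.0 in the mutant libraries, a log2 difference of 0.027 (exact two-sided permutation p = 1.0, adjusted 1.0).

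Amotl1 and Amotl2 encode angiomotin-like proteins, which bind YAP at cell junctions and actin. Amotl1 (ENSMUSG00000013076, chr9:14541966-14645056, reverse strand) was measured at 241.4, 145.5 and 108.3 CPM in wt LFs and at 176.7, 171.4 and 124.4 CPM in the libraries labelled TKS5 KO. The wt values spanned the mutant ones, and wt replicate 1 was the highest of the 6. Its log2 fold change of -0.061 (SE 0.25, 95% interval -0.58 to 0.46, adjusted p = 0.863 by edgeR) turned to 0.31 without wt replicate 1, to 0.12 without mutant replicate 3 and to 0.575 with the length correction, and none of these was called. Amotl2 (ENSMUSG00000032531, chr9:102716672-102733418, forward strand) was measured at 133.9, 139.7 and 124.2 CPM against 184.4, 143.4 and 132.0 CPM. The groups overlapped, with mutant replicate 1 above the rest, and the log2 fold change was 0.21 (SE 0.20, 95% interval -0.21 to 0.63, adjusted p = 0.420 by edgeR), or -0.20 with scaling by library totals alone.

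Ajuba (ENSMUSG00000022178, chr14:54567472-54577558, reverse strand) encodes a LIM protein that binds LATS kinases and restrains them. It had the fewest counts of the 10 genes, 33, 40 and 46 in the wt libraries against 23, 15 and 25 in those labelled TKS5 KO, or 21.24, 21.4 and 17.06 against 12.62, 8.777 and 12.79 CPM. All mutant values were below all wt values. The log2 fold change was -0.79 (SE 0.31, 95% interval -1.43 to -0.14, adjusted p = 0.0435 by edgeR). The call was close to the threshold: it held in 3 of the 14 alternatives and in none of the 6 that left out a library, with log2 fold changes of -0.90 to -0.60 in the latter.

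Among the targets, Axl and Crim1 fell and were called under all 14 alternatives. Axl (ENSMUSG00000002602, chr7:25757273-25788705, reverse strand) encodes a receptor tyrosine kinase for the ligand GAS6. It was measured at 569.6, 555.4 and 521.7 CPM in wt LFs and at 281.0, 184.9 and 265.1 CPM in the libraries labelled TKS5 KO. The highest mutant value was far below the lowest wt value, and mutant replicate 2 was the lowest. The mean went from 549 ± 24.6 (SD, n = 3) to 244 ± 51.5 CPM (SD, n = 3), so that Axl was 2.25-fold lower, a log2 fold change of -1.17 (SE 0.21, 95% interval -1.61 to -0.74, adjusted p = 1.06e-04 by edgeR). Over the alternatives the log2 fold change was -1.65 to -0.96 (adjusted p 5.67e-08 to 0.00143). Without wt replicate 3, the library with the most macrophage marker CPM, the log2 fold change of Axl was -1.21. The wt libraries left still held 370.1 and 313.6 CPM of macrophage markers, against 120.7 to 135.1 in those labelled TKS5 KO. This value thus does not separate genotype from macrophage content, whose part in the fall was not tested.

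Crim1 (ENSMUSG00000024074, chr17:78200248-78376592, forward strand) encodes a transmembrane protein with cysteine-rich repeats that bind ligands of the TGFβ superfamily. It was measured at 80.45, 72.77 and 44.86 CPM in wt LFs and at 18.11, 16.38 and 26.61 CPM in the libraries labelled TKS5 KO, from 125, 136 and 121 counts and from 33, 28 and 52 counts. The groups did not overlap, although wt replicate 3 was well below the other wt libraries. The mean went from 66.0 ± 18.7 (SD, n = 3) to 20.4 ± 5.48 CPM (SD, n = 3), the furthest fall of the 10 genes, at 3.19-fold (log2 fold change -1.68, SE 0.27, 95% interval -2.24 to -1.12, adjusted p = 3.31e-05 by edgeR). Over the alternatives the log2 fold change was -2.10 to -1.25 (adjusted p 4.50e-09 to 8.46e-04). None of the alternatives separates genotype from the differences in macrophage, endothelial and mesothelial markers. The part of such cells in the fall of Crim1 was not tested.

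Ankrd1 (ENSMUSG00000024803, chr19:36111961-36120099, reverse strand) encodes an ankyrin repeat protein of muscle and stressed fibroblasts and is among the most used readouts of YAP and TAZ. It was measured at 606.9, 553.3 and 578.8 CPM in wt LFs and at 379.2, 512.6 and 600.3 CPM in the libraries labelled TKS5 KO. The groups overlapped, and the mutant libraries spread from far below to within the wt range. The log2 fold change was -0.22 (SE 0.21, 95% interval -0.65 to 0.21, adjusted p = 0.407 by edgeR) and reached the threshold with scaling by library totals alone (-0.65, adjusted p = 0.00889) and with the authors' normalized counts (-0.91, adjusted p = 0.00131). On the CPM, exact two-sided permutation tests gave p = 0.1, the smallest possible, for the 6 genes whose groups did not overlap, 0.2 for Wwtr1, 0.3 for Ankrd1 and Amotl2, and 0.9 for Amotl1.

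**Figure D4:**
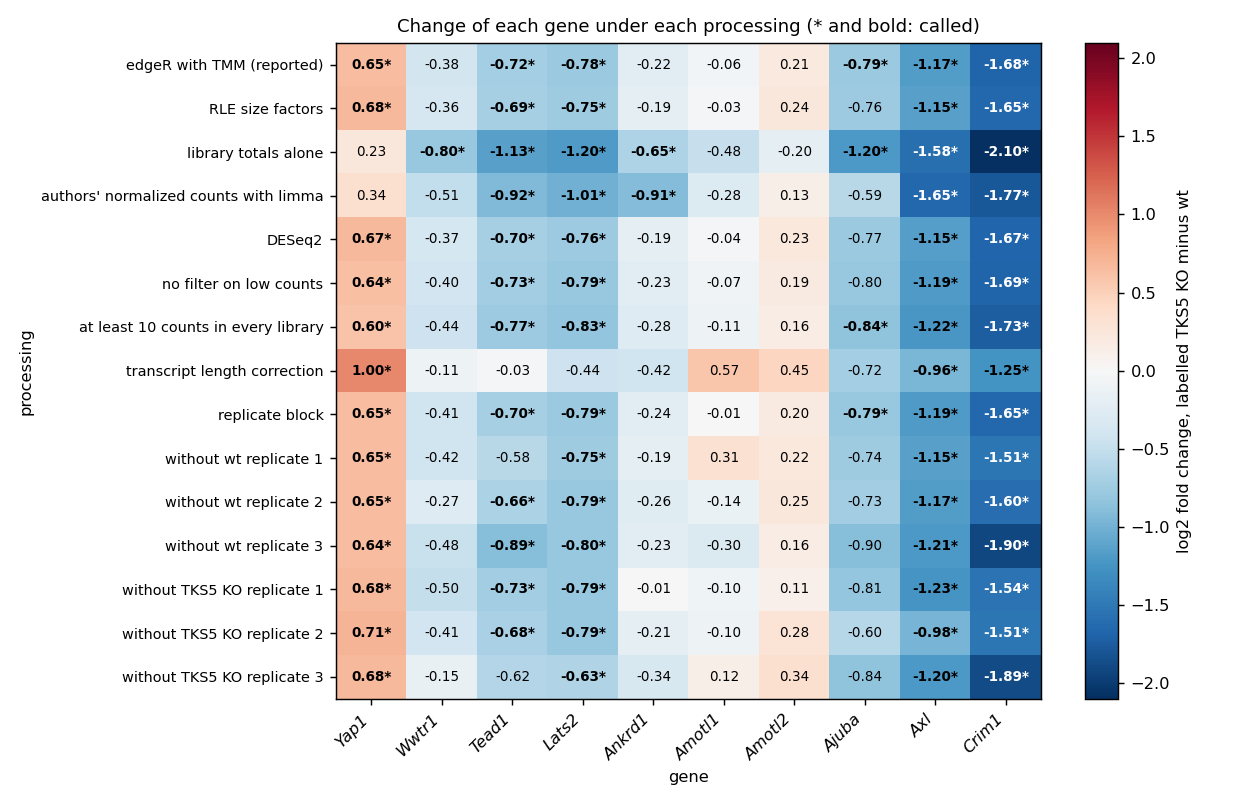
Log2 fold change (libraries labelled TKS5 KO minus wt, colour and number) of the 10 genes on the x axis under the reported fit and 14 alternatives on the y axis, with calls in bold and starred. Axl and Crim1 are called in every row, Ajuba in 3 of the 14 alternatives, and scaling by library totals alone lowers all 10 values.

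The values also moved with the scaling and with transcript length. With scaling by library totals alone the median over all genes tested was -0.47 on the log2 scale in place of -0.046, and 7 of the 10 genes were called lower and 0 higher, next to 38.1% and 13.2% of all genes. Read against that shift, Yap1 at 0.23 remained above the median of all genes. The genes are also long: their longest annotated transcripts had a median of 4944 bases, against 3204 for all tested genes, and 9 of the 10 were longer than that median, all but Ankrd1. Across 10339 tested genes, which are not independent replicates, the log2 fold change had a Spearman rho of -0.397 with this length. With the length trend of each library removed, 2 of the 10 genes were called lower, Axl (-0.96) and Crim1 (-1.25), and 1 higher, Yap1 (1.00), next to 19.0% lower and 19.9% higher of all genes, and the median of the 10 genes was -0.27.

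Other Hippo and TEAD genes were read from a list of 25, of which 20 were tested. Of these 7 fell, 3 rose and 10 were not called, with a median log2 fold change of -0.47, next to the same background of 22.1% lower and 22.8% higher. With the length correction 3 fell and 5 rose. The 4 falls with the smallest adjusted p were Wwc2, Stk3, Amot and Ptpn14. Wwc2, of the KIBRA family that recruits LATS, went from 128 ± 30.7 (SD, n = 3) in wt LFs to 55.5 ± 6.37 CPM (SD, n = 3) and was 2.29-fold lower (log2 SE 0.22, adjusted p = 1.68e-04 by edgeR), and its end overlaps Cldn22 on the opposite strand. Stk3, the gene of the kinase MST2, had 27, 34 and 38 counts in the wt libraries against 11, 2 and 3 in those labelled TKS5 KO, with a log2 fold change of -2.47 (SE 0.47, adjusted p = 2.05e-04 by edgeR). The wt and mutant counts of Stk3 did not overlap, and it was called in all 13 alternatives in which it could be fitted, of which the one without mutant replicate 1 gave -3.48, a fitted value and no bound, since the mutant libraries left held 2 and 3 counts. Amot, of the angiomotin family, changed by -1.38 (adjusted p = 4.77e-04), and Ptpn14, a phosphatase that binds YAP, by -1.36 (adjusted p = 5.45e-04; 0.0707 after the length correction).

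The 3 rises in this list were Wtip, Mob1a and Sav1. Wtip, a LIM protein of the Ajuba family, was measured at 34.11, 30.5 and 29.66 CPM in wt LFs and at 83.96, 71.39 and 77.27 CPM in the libraries labelled TKS5 KO. It was higher in 3 of 3 mutant libraries, with a log2 fold change of 1.31 (SE 0.22, adjusted p = 4.55e-05 by edgeR), and was called under all 14 alternatives. Mob1a, an activator of LATS, changed by 0.71 (adjusted p = 0.0268) with overlapping groups, and Sav1, the scaffold of the MST kinases, by 0.67 (adjusted p = 0.0332). Mob1a kept its call in 7 and Sav1 in 6 of 14 alternatives, and the end of Sav1 overlaps Atl1 on the opposite strand. Of the further TEAD genes, Tead2 had a log2 fold change of -0.48 (adjusted p = 0.117) and was named after its value was seen. The end of Tead2 overlaps Cd37 on the opposite strand. The Tead1 to Tead2 ratio was 2.838 to 4.804 in wt LFs and 3.04 to 3.902 in the mutant libraries, with a log2 difference of -0.21 (exact two-sided permutation p = 0.6, adjusted 0.875). The Amotl2 to Amotl1 ratio differed by 0.20 (exact two-sided permutation p = 0.7, adjusted 0.875).

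**Figure D5:**
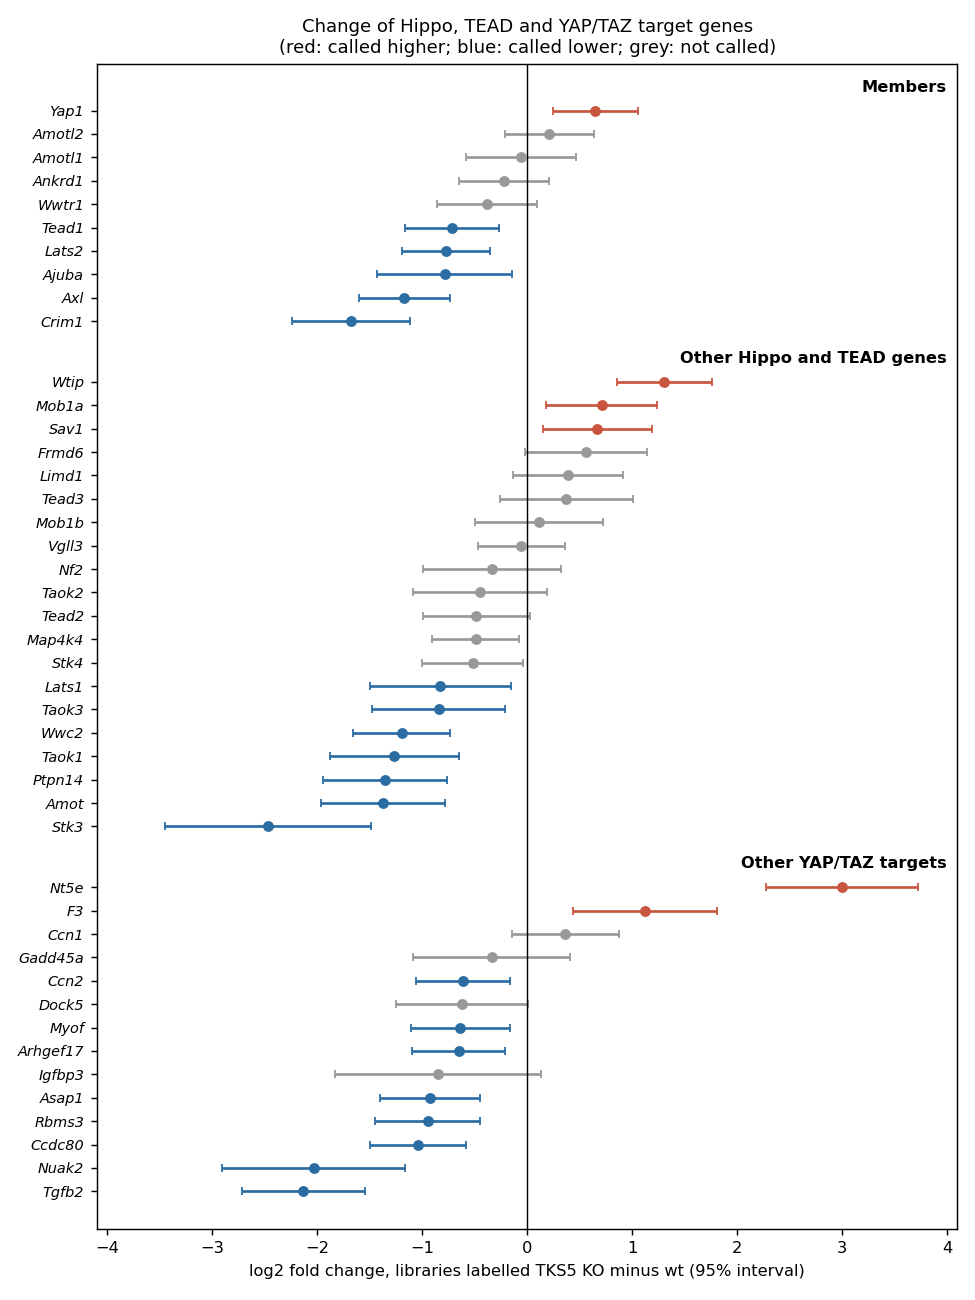
Log2 fold change (x axis, libraries labelled TKS5 KO minus wt) with its 95% interval from the edgeR fit for the 10 genes, 20 tested Hippo and TEAD genes and 14 tested YAP/TAZ targets, in red where called higher, blue where called lower and grey where not called. The values run from -2.47 for Stk3 to 3.00 for Nt5e, with falls and rises in each list.

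Further YAP/TAZ targets were 16 genes of a published signature of 22 genes, of which 14 were tested. Of the rest of that signature, Lats2, Ankrd1, Amotl2, Axl and Crim1 are among the 10 genes and Ptpn14 was kept in the Hippo list. Of the 14, 8 fell, 2 rose and 4 were not called, with a median log2 fold change of -0.64, next to 22.1% lower, 22.8% higher and a median of -0.046 over all genes tested. With the length correction 4 fell and 1 rose. Tgfb2, a TGFβ ligand, was measured at 97.83, 109.7 and 58.58 CPM in wt LFs and at 23.05, 12.29 and 24.56 CPM in the libraries labelled TKS5 KO. All mutant libraries were below all wt libraries, with a log2 fold change of -2.13 (SE 0.28, adjusted p = 3.20e-06 by edgeR). The kinase gene Nuak2 changed by -2.04 (adjusted p = 4.55e-04), from 23, 29 and 30 counts to 7, 6 and 5. Ccdc80, a secreted matrix protein, changed by -1.04 (adjusted p = 6.01e-04), and Asap1, a GTPase-activating protein of ARF proteins found in podosomes, by -0.92 (adjusted p = 0.00235; 0.0998 after the length correction).

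Nt5e, the gene of the surface enzyme CD73, went the other way. Its counts were 6, 7 and 12 in the wt libraries against 64, 70 and 45 in those labelled TKS5 KO, with no overlap between the groups. The log2 fold change was 3.00 (SE 0.35, 95% interval 2.28 to 3.72, adjusted p = 6.44e-07 by edgeR). F3, the gene of tissue factor, was measured at 130.7, 126.3 and 92.32 CPM in wt LFs and at 317.7, 323.0 and 118.7 CPM in the mutant libraries. Mutant replicate 3 lay within the wt range, and the log2 fold change of 1.12 (adjusted p = 0.0109 by edgeR) lost its call in 5 of 14 alternatives. It was 0.71 (adjusted p = 0.0846) with library totals alone, 0.73 (0.085) with the authors' normalized counts, 0.89 (0.0526) with the length correction, and 0.98 (0.0593) and 0.93 (0.0592) without mutant replicates 1 and 2.

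Ccn2 and Ccn1, which encode the matricellular proteins CTGF and CYR61 and are widely read as YAP/TAZ targets, are given although the rule for named genes does not reach them, and were chosen after their values were seen. Ccn2 was measured at 5551, 5671 and 4615 CPM in wt LFs and at 3628, 4038 and 2697 CPM in the mutant libraries, for a log2 fold change of -0.61 (SE 0.22, adjusted p = 0.0244 by edgeR). Its groups did not overlap, its call was lost when wt replicate 1 (adjusted p = 0.0699), wt replicate 2 (0.108) or mutant replicate 3 (0.184) was left out, and its end overlaps Gm15270 on the opposite strand. Ccn1 was measured at 385.5, 417.9 and 409.7 CPM in wt LFs and at 574.0, 695.7 and 294.3 CPM in the mutant libraries. Mutant replicate 3 was the lowest of the 6 and the other two mutant libraries the highest, with a log2 fold change of 0.37 (adjusted p = 0.235 by edgeR) that was -0.055 with scaling by library totals alone and -0.16 with the authors' normalized counts. Without mutant replicate 3 it was 0.69 and called (adjusted p = 0.0215), and without mutant replicate 2 it was 0.13. The Ccn1 to Ccn2 ratio was 0.0695, 0.0737 and 0.0888 in the wt libraries against 0.158, 0.172 and 0.109 in those labelled TKS5 KO. It was higher in 3 of 3 mutant libraries, by 0.90 on the log2 scale (exact two-sided permutation p = 0.1, adjusted 0.25 over the 5 ratios).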

How the data were processed

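Quant-Seq libraries of 3 wt and 3 mutant LF samples were compared, with the 10 genes and the lists chosen with earlier results of these data known. Reads were trimmed (Trim Galore) and aligned to GRCm38 (HISAT2, with Bowtie2 for the rest) by the authors, who counted reads on the untranslated ends of transcripts and deposited raw counts per gene. Whether counting kept to a strand is not given in the sources used here. The deposited normalized counts are treated as a score, since the authors normalized them with EDASeq and rounded them, and their sorted values are the same in all 6 libraries. They were used in 1 alternative only.

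Of 55364 genes listed, 55104 were matched to GENCODE symbols. Raw counts of all 6 libraries were fitted by edgeR 4.0.16 under R 4.3.3, with filterByExpr, TMM, a robust quasi-likelihood F test and no covariate, and genes were called at adjusted p under 0.05 with at least a 1.2-fold change. The common dispersion was 0.0429. CPM use TMM-scaled library sizes, and totals of 1344507 to 2369882 counts limit the precision of low genes. Single genes and ratios were also compared by exact permutation. The alternatives were RLE size factors, library totals alone, the authors' normalized counts as log2(value + 1) with limma 3.58.1, DESeq2 1.42.0, no filter, at least 10 counts in every library, a loess correction for transcript length (span 0.5), a replicate block and each library left out. The scripts were tested on simulated data.

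Named genes were all 10 genes, Sh3pxd2a and, in each further list, up to 4 genes called lower and 4 called higher with the smallest adjusted p. Lats1, Tead2, Ccn1 and Ccn2 were added after their values were seen, as were the 5 ratios and the motifs. Promoter windows came from RefSeq (GRCm38.p6) and gene positions from GENCODE. The Python packages were numpy 2.4.6, pandas 2.3.3, matplotlib 3.10.9 and scipy 1.17.1.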

Additional observations from a re-analysis of the deposited data

How the results depend on the processing

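Of the 10 genes, Axl and Crim1 kept direction and call under all 14 alternatives. Library totals alone gave 0.23 for Yap1 (not called), -0.80 for Wwtr1 and -0.65 for Ankrd1 (both called), -0.20 for Amotl2, -0.13 for Sh3pxd2a and -0.055 for Ccn1, with 3944 genes called lower and 1362 higher over all genes, 0 of the 10 genes higher, 11 other Hippo genes lower and 1 higher, and 1 other target higher. The authors' normalized counts gave 0.34 for Yap1, -0.91 for Ankrd1, -0.59 for Ajuba and -0.16 for Ccn1, with 0 of the 10 genes and 1 other target higher. The length correction gave -0.029 for Tead1, -0.44 for Lats2, 0.575 for Amotl1, -0.72 for Ajuba and 1.01 for Sh3pxd2a (called, adjusted p = 4.89e-04), with 2 of the 10 genes lower, 3 other Hippo genes lower and 5 higher, and 4 other targets lower and 1 higher. Ajuba was at -0.76 with RLE size factors, -0.77 with DESeq2 and -0.80 with no filter, not called in any of them (adjusted p 0.0505, 0.177 and 0.0741). DESeq2 called 1 other Hippo gene higher, and at least 10 counts in every library left 1 other target higher; DESeq2 called 3797 genes in all and this filter 3705. With each library left out, the log2 fold change was -0.89 to -0.58 for Tead1, -0.30 to 0.31 for Amotl1 (0.12 without mutant replicate 3) and -0.90 to -0.60 for Ajuba, 3 to 4 of the 10 genes were lower, 1 to 3 other Hippo genes were higher, 5 to 8 other targets were lower and 1 to 3 higher, and the counts of all genes were 1762 to 2118 lower and 2007 to 2477 higher. Left out one at a time, libraries moved the log2 difference of the Amotl2 to Amotl1 ratio between -0.11 (wt replicate 1) and 0.42 and that of the Lats2 to Lats1 ratio between -0.12 and 0.19, turning the latter at -0.12 (wt replicate 1), -0.013 (mutant replicate 1) and -0.025 (mutant replicate 2). The causes were not tested. Deviations of same-numbered libraries had correlations of -0.001, -0.064 and 0.082, so no shared deviation was seen. These values cannot tell whether the libraries were prepared as pairs. The replicate block gave 2308 genes lower and 2360 higher, with 5 of the 10 genes lower and 1 higher.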
